A study of Mus musculus with 5 samples.

Results

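Small intestinal organoids of genotype Lkb1 -/-, from the library whose title carries the mark Cys (read here as the cystic cultures; called Cys), were compared with small intestinal organoids of genotype Lkb1 +/- (het) over all genes. The members are the wells of both plates with 1000 to 100000 unique molecular identifiers (UMIs, each a tag for 1 captured transcript) after spike-in rows were dropped, and with at most 2% of those UMIs from Kcnq1ot1, a transcript that marks damaged cells in this method. That left 335 Cys and 291 het cells, 626 of the 1550 that the same rule keeps in the whole series. Single cells had been sorted into 384-well plates and read by SORT-seq, which reads transcripts from their 3' ends. The series has 1 plate for each of 5 groups; the other 3 were wild-type small intestinal organoids (WT), wild-type fetal intestinal organoids (fetal) and another Lkb1 -/- library marked Bud, and their levels are given beside those of Cys and het. All small intestinal cultures were grown in medium with Egf, R-spondin1 and Noggin. The organoids were genetically edited, but the edited part of the gene, the number of clones or mice behind a culture, and the meaning of Cys and Bud are not given in the labels, and the shape of the organoids is not recorded in the tables.

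LKB1, the protein kinase encoded by Stk11, works in a complex with STRAD and MO25 proteins and switches on AMPK and a family of related kinases, among them the salt-inducible kinases (SIK) that hold the CRTC coactivators of CREB in check. Inherited loss of 1 copy causes Peutz-Jeghers syndrome, with polyps of the gut. In the intestine, LGR5-positive stem cells at the crypt base divide under WNT signals and give absorptive enterocytes and secretory Paneth, goblet, enteroendocrine and tuft cells, while caudal (CDX), HNF4 and GATA factors keep the intestinal fate. After injury, and in the fetus, gut epithelium uses another program, marked by Clu, Anxa1 and Ly6a and tied to YAP/TAZ signalling, and cultures in that state often grow as round cysts without buds.

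Each group was 1 library, so nothing measured the spread between cultures: no test was made, and every difference describes these 2 plates. A gene's level is its UMIs summed over the kept cells of a plate, in CPM, its count per 1000000 UMIs of that plate. Values in brackets are exact 95% intervals that cover counting error only. A gene was measured with at least 10 UMIs over both plates, and it was called higher or lower when Cys and het differed at least 2-fold after 10 CPM had been added to both, so that a log2 ratio of 1 is the limit. Cys cells held 4327899 UMIs in all, with a median of 10872 UMIs and 3479 genes a cell, and het cells 4221440 UMIs, with medians of 13347 and 3956. Rn45s, the precursor of ribosomal RNA, made up 6.84% of UMIs in Cys and 2.79% in het, the filter on Kcnq1ot1 removed 22 Cys and 60 het wells, and both wells over 100000 UMIs (147615 and 452137) were on the Cys plate. The part of these plate differences in the results was not tested; values with other filters and scalings stand in the closing section. Both plates carry the same 384 well barcodes by construction.

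Stk11, the edited gene, lies on the forward strand of chromosome 10 (80115803 to 80130682, GRCm38), and its level was 16.1 CPM in fetal, 20.4 in WT, 14.2 in het, 12 in Bud and 7.62 in Cys. Its Cys to het ratio was 0.536 (0.34 to 0.834) and its log2 ratio of -0.46 did not reach the limit for a call. Only 33 Cys and 60 het UMIs lie behind these levels, and a 3' tag can come from a transcript that no longer encodes the kinase, so they do not check the genotypes. Both plates held epithelium: Cdh1, the adhesion protein E-cadherin, was at 601 CPM in het and 586 in Cys, and Krt8, a keratin of simple epithelia, at 1653 CPM in het and 2029 in Cys. Epcam, the pan-epithelial surface protein, was at 762 CPM in het and 409.9 in Cys, a ratio of 0.538 (0.507 to 0.57). Of 7 measured pan-epithelial genes Krt19 was called higher and Cldn3 lower, although Cldn3 lost its call when every cell weighed the same (log2 ratio -0.99). None of 10 mesenchymal and 2 of 10 immune markers were measured, and those 2 summed to 5.21 CPM in het and 1.62 in Cys. Of the endothelial markers only Tek was measured; it is described below.

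Of 11691 measured genes, 696 (5.95%) were called higher and 712 (6.09%) lower in Cys, and the median log2 ratio over all of them was -0.05. These shares are the background for every count of called list members over all kept cells given below. After 10 CPM had been added to both, differences of at least 4-fold were found for 193 and 222 genes. They were at least 10-fold for 44 and 70, and at least 100-fold for 4 and 1. Fold values of single genes given below are without the added CPM and can be larger. The genes at the upper end were those of the gastric and the fetal or regenerating epithelium, and the genes at the lower end were those of absorptive enterocytes and of intestinal identity.

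**Figure D1:**
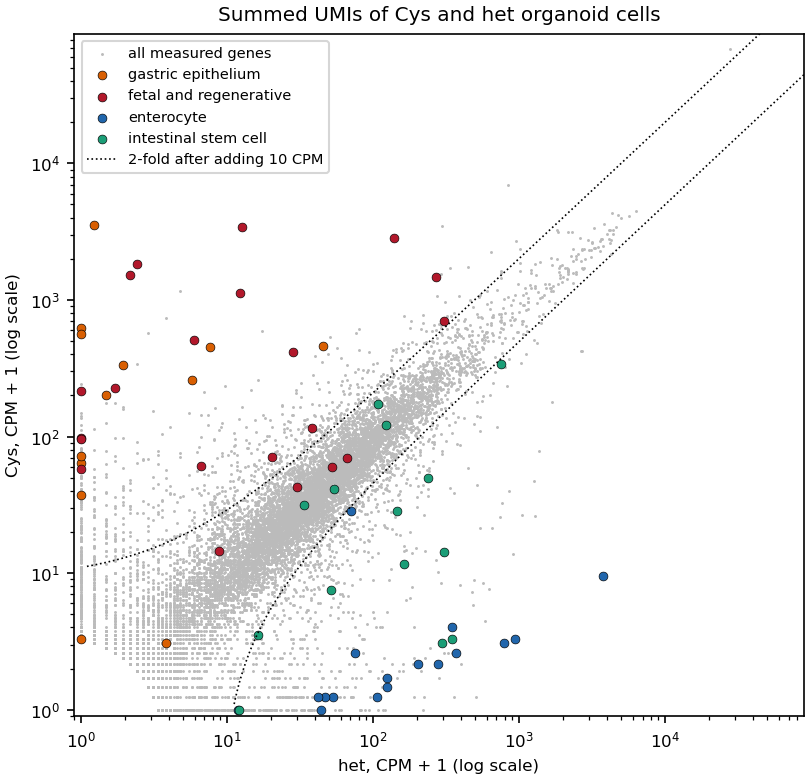
Level of each measured gene in het (x axis) and Cys (y axis), as CPM + 1 on log scales, 1 grey point per gene; coloured points are members of 4 gene lists and dotted lines mark 2-fold after adding 10 CPM. Gastric and fetal genes lie in the upper left, 17 of 17 measured enterocyte genes below the lower dotted line.

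Cys cells carried transcripts of the stomach's surface mucous lining: the measured genes of the gastric list summed to 6601 CPM in Cys, against 154 CPM in fetal, 46.7 in WT, 60.4 in het and 66.5 in Bud. Of 13 measured genes of the gastric list 11 were called higher and none lower, against 5.95% of all measured genes called higher, with a median log2 ratio of 4.18. Without the added 10 CPM, and with the 6 genes that had no het UMI at a lower bound, the median was 6.47. Tff1, the trefoil peptide secreted by gastric pit cells, was at 2.9 CPM in fetal, 0.252 in WT, 0.237 in het, 2.76 in Bud and 3545 in Cys. The Cys level rests on 15342 UMIs and the het level on 1, a ratio of 14965 (2685 to 591109), and Tff1 was thus high in 1 library of 5. Gkn1, the gastrokine of the gastric surface mucus, was at 0 CPM in fetal, 0.252 in WT, 0 in het, 6.53 in Bud and 558 in Cys. With no UMI in het, Gkn1 was at least 785-fold higher in Cys, against a floor of 3 UMIs in the het library; the same floor is used for every bound below. Dpcr1, a mucin-like protein, was at least 881-fold higher at 626 CPM. Tff2, the trefoil peptide of gastric neck cells, stood at 6.63 CPM in het and 452 in Cys, and Vsig1, a junctional protein of gastric epithelium, at 0.948 CPM in het and 331 in Cys. Ctse, the gastric protease cathepsin E, was read at 201 CPM in Cys from 870 UMIs against 2 UMIs in het, and Anxa10 was 54.3-fold higher (35 to 89.2). Gkn2 (70.7 CPM), the water channel Aqp5 (63.1) and Psca (36) had no het UMI, and were at least 99.5-fold, 88.8-fold and 50.7-fold higher. Gkn3 was already at 44.5 CPM in het and 42.1 in WT and was 10.3-fold higher (8.84 to 12). The 2 uncalled members were low: Cldn18 at 0 CPM in het and 2.31 in Cys and Capn8 at 2.84 CPM in het and 2.08 in Cys. Not measured, with under 10 UMIs over both plates, were the secreted gastric mucins Muc5ac and Muc6, the chief cell zymogen gene Pgc, the foregut factor Sox2 and Capn9. Muc5ac had 1 UMI in Cys and Sox2 had 0. Pgc and Capn9, left out of the sums above, had 0 UMIs in Cys, against 70 and 19 in WT and 47 and 17 in Bud.

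The trefoil genes sit side by side on chromosome 17 (GRCm38, reverse strand), with Tff3 at 31125306 to 31129646, Tff2 at 31141049 to 31144282 and Tff1 at 31161395 to 31165277. Within this cluster the directions differed: Tff1 and Tff2 were higher in Cys, while Tff3, the trefoil peptide of intestinal goblet cells, was at 0 CPM in fetal, 651 in WT, 1110.3 in het, 1142 in Bud and 402 in Cys, 2.76-fold lower (2.62 to 2.92) in Cys than in het. The 3 gastrokine genes also form 1 cluster, on chromosome 6 between 87345650 and 87388935, and all 3 were called higher. The Gkn1 promoter is printed because the gastrokine genes were higher together; GATA factors, which are active in stomach and small intestine, bind the letters AGATAA, in capitals. The 250 bases before the start site (chr6:87350916-87351165, reverse strand, GRCm38.p6, RefSeq) read 5' to 3':
Gkn1: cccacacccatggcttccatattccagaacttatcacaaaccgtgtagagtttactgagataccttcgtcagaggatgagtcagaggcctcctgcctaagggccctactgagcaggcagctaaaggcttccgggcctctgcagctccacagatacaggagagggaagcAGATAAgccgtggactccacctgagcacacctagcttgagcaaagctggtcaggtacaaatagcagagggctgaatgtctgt
AGATAA, searched on both strands of the 300-base windows around start sites (250 bases before to 50 after), was found in the promoters of Gkn1, Gkn2 and Gkn3 among the 6 of 11 higher gastric genes that have a promoter in the table, and in 11.2% of all 32851 promoters. A match shows only that the letters are there.

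Genes of the fetal and regenerating epithelium were higher in Cys as well. Of 21 measured members 17 were called higher and none lower, with a median log2 ratio of 3.40, or 4.36 without the added 10 CPM. Clu, clusterin, the marker of the revival stem cells that appear after injury, was at 4157 CPM in fetal, 10.3 in WT, 11.6 in het, 11.8 in Bud and 3419 in Cys. It was 295-fold higher (223 to 398) in Cys than in het, and WT, het and Bud were all near the het level. After thinning every cell to 2000 UMIs, 98.5% of 327 Cys and 1.45% of 275 het cells held a Clu UMI (99.4% and 4.47% at full depth), and 42.9% of all het Clu UMIs came from 1 cell. Msln, the surface protein mesothelin, was at 1032 CPM in fetal, 0 in WT, 1.42 in het, 0 in Bud and 1836 in Cys, and Il33, an alarmin cytokine stored in nuclei, at 239.8 CPM in fetal, 1.77 in WT, 1.18 in het, 23.1 in Bud and 1534 in Cys. All 6 het Msln UMIs lay in 1 cell. Anxa1, an annexin of wounded epithelium, was at 11.4 CPM in het and 1116 in Cys, 98.1-fold higher (73.9 to 133), and Ly6a, which encodes Sca-1, at 4.97 CPM in het and 507 in Cys, 102-fold higher (66.5 to 165). Both stood higher still in fetal organoids, at 1992 and 1553 CPM.

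S100a6, a calcium-binding protein, was among the most abundant members at 138 CPM in het and 2843 in Cys, 20.6-fold higher (18.9 to 22.4). The annexin Anxa8 and the gap junction protein Gja1 had no het UMI and 417 and 245 UMIs in Cys, and were at least 136-fold and 79.7-fold higher. Basp1 stood at 226 CPM in Cys and at 3 UMIs in het, and Ly6d at 216 CPM with no het UMI. Ly6d also differed from the other members in its fetal level, 2.22 CPM, whereas Basp1 and Anxa8 were at 410.4 and 143 CPM there. Smaller differences were found for Anxa3 (15.2-fold, 12.6 to 18.5), Il1rn (10.5-fold, 6.89 to 16.7), Krt7 (5.45-fold, 5.11 to 5.81), Anxa5 (3.59-fold, 2.81 to 4.64), Tnfrsf12a (3.08-fold, 2.57 to 3.71) and Anxa2 (2.3-fold, 2.15 to 2.46). Emp1, Cldn4, Cd55 and Sprr1a were not called: Emp1 was at 65.1 CPM in het and 69.1 in Cys and Sprr1a at 7.82 CPM in het and 13.6 in Cys, while fetal organoids had 466 and 445 CPM of them. Spp1 was not measured, with 8 UMIs in Cys and 0 in het, whereas fetal organoids had 8054 UMIs of it. The summed level of the measured members was 985 CPM in het, 803 in WT, 1498 in Bud, 14953 in Cys and 18771 in fetal organoids. These sums leave Spp1 out, which makes the fetal sum too low.

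Enterocyte transcripts were nearly missing from Cys cells. Every one of 17 measured enterocyte genes was called lower in Cys (median log2 ratio -3.64, or -7.64 without the added 10 CPM), against 6.09% of all measured genes. Sis, the brush border enzyme sucrase-isomaltase, was at 0 CPM in fetal, 346 in WT, 941 in het, 131 in Bud and 2.31 in Cys, 407-fold lower (221 to 850.3) in Cys than in het. Fabp1, the fatty acid binding protein of the proximal gut, was at 0 CPM in fetal, 616 in WT, 787 in het, 1.76 in Bud and 2.08 in Cys, 378-fold lower (199 to 828). For both genes Cys was near the fetal level and het above WT. Bud shared the low Fabp1 level, and its Sis level lay below WT and het but above Cys. The glucose transporter Slc5a1 (227-fold, 110.1 to 566), the lipoprotein assembly protein Mttp (115-fold, 66.9 to 216), the alkaline phosphatase Alpi (242-fold, 103 to 747) and Fabp2 (176-fold, 75 to 543) were lower by similar factors, and Krt20, a keratin of mature villus cells, stood at 74.4 CPM in het and 1.62 in Cys. The apolipoproteins Apoa1 and Apoa4 had 3 and 1 Cys UMIs against 520 and 446 in het. Treh, the enzyme trehalase, and Apob were closest to the limit, at log2 ratios of -1.06 and -1.10, and both lost their call when every cell weighed the same (-0.79 and -0.81). The summed list level was 7345 CPM in het, 3829 in WT, 1382 in Bud, 58.8 in fetal and 50.8 in Cys. Since CPM of a plate sums over all its cells, fewer enterocytes and less of these transcripts in each cell cannot be told apart in it; the values per cell are given below.

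The Sis and Fabp1 promoters are shown for the caudal factors, whose own genes are described next and which bind AT-rich letters; capitals mark TTTATG and TTTATTG on either strand. Both are 250 bases before the start site in 5' to 3' order (GRCm38.p6, RefSeq), Sis from chr3:72967864-72968113 on the reverse strand and Fabp1 from chr6:71199629-71199878 on the forward strand:
Sis: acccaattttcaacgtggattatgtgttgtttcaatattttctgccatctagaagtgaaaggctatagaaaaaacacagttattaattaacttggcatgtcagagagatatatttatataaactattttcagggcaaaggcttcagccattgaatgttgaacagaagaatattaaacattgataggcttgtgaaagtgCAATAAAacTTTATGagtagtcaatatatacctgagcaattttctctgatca
Fabp1: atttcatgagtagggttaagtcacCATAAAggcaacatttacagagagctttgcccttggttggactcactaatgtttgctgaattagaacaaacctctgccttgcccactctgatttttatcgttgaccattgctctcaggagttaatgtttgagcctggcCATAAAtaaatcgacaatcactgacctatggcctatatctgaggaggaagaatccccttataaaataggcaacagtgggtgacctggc
In Sis both letter runs lay next to each other, starting at -52 and -43 from the start site, and in Fabp1 TTTATG was read on the reverse strand at -226 and -88. Over the 300-base windows TTTATG occurred in 2 of the 14 lower enterocyte genes that have a promoter in the table (Fabp1 and Sis) and in 11.9% of all promoters, and TTTATTG in 2 of 14 (Fabp2 and Sis) and in 4.6%.

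The regulators that keep the intestinal fate were lower in part. Of 14 measured regulators and surface proteins that mark intestinal epithelium, 7 were called lower and Gata5 higher (median log2 ratio -1.03). Cdx1, a caudal homeobox factor, was at 0.171 CPM in fetal, 217 in WT, 245 in het, 266 in Bud and 1.85 in Cys, and was 133-fold lower (67.1 to 308) in Cys than in het. Cdx2, its partner and the main determinant of intestinal fate, was less abundant from the start, at 5.81 CPM in fetal, 44.9 in WT, 36.5 in het, 42.7 in Bud and 8.55 in Cys, and was 4.27-fold lower (2.96 to 6.29). Isx, a homeobox factor of the intestine, had 2 UMIs in Cys and 485 in het. Cdh17, the liver-intestine cadherin, was 24.4-fold lower (20.5 to 29.2), Hnf4g was 13.8-fold lower (10.6 to 18.1), Gata4 was 3.92-fold lower (3.3 to 4.67) and Hnf4a was 3.68-fold lower (3.36 to 4.03). The GATA family did not share a direction: Gata4 stood at 153 CPM in het and 39 in Cys, Gata5 at 41.5 CPM in het and 113 in Cys and Gata6, which was not called, at 129 CPM in het and 74.6 in Cys. Fetal organoids had 0 CPM of Gata4 and 0.171 of Cdx1. Klf5 and Klf4, zinc finger factors of gut epithelium, were at ratios of 1.18 (1.12 to 1.24) and 1.16 (0.937 to 1.44), and the cytoskeletal gene Vil1 and the surface antigen Gpa33 at 0.594 (0.549 to 0.642) and 0.797 (0.745 to 0.853).

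Transcripts of the crypt base stem cell were lower in Cys. Of 14 measured genes of the intestinal stem cell 10 were called lower and none higher (median log2 ratio -1.50). Lgr5, the R-spondin receptor of crypt base stem cells, was at 102 CPM in fetal, 279.6 in WT, 304 in het, 316 in Bud and 13.2 in Cys, and was 23.1-fold lower (17.7 to 30.6) in Cys than in het. Smoc2, a matricellular stem cell marker, was 143-fold lower (75 to 313), Igfbp4 149-fold lower (80.7 to 311), and Axin2, the feedback inhibitor that reports WNT/beta-catenin activity, 15.3-fold lower (11.4 to 21.1). Ascl2, a transcription factor of stem cells, was 5.35-fold lower (4.39 to 6.57), and Olfm4, low in these cultures at 11.1 CPM in het, had no Cys UMI. Igfbp4 did not separate Cys from fetal cultures in the same way as Smoc2: fetal organoids had 347 CPM of Igfbp4 and 0 of Smoc2. Lrig1, Znrf3, Rnf43 and Ephb3 were not called, with ratios of 1.0 (0.886 to 1.13), 0.94 (0.735 to 1.2), 0.754 (0.615 to 0.923) and 1.59 (1.41 to 1.79).

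WNT targets beyond the stem cell did not share a direction. Of 14 measured, Lgr5, Axin2 and Ascl2 were called lower, Cd44 and Ccnd1 higher, and 9 were not called (median log2 ratio -0.12). Cd44, a hyaluronan receptor, was at 537 CPM in fetal, 155 in WT, 137 in het, 359 in Bud and 432 in Cys, and Ccnd1, cyclin D1, at 1068 CPM in fetal, 200.1 in WT, 229 in het, 273 in Bud and 488 in Cys. Sox9, a progenitor factor, was at 389 CPM in het and 553 in Cys, and Myc at 151 CPM in het and 113 in Cys, ratios of 1.42 (1.33 to 1.52) and 0.747 (0.663 to 0.842). Ccnd1 lost its call when cells were thinned before summing (log2 ratio 0.96).

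Paneth and enteroendocrine genes were lower in Cys or not called, while the tuft and goblet lists held calls in both directions. In the Paneth list 6 of 7 measured genes were called lower, among them Lyz1, lysozyme (103 CPM in het and 3.0 in Cys), and Itln1 (223 CPM in het and 0.231 in Cys), an intelectin; 1 het cell supplied 60.8% of the het Itln1 UMIs and 35.6% of those of Lyz1. Habp2 was not called (7.34 CPM in het and 17.8 in Cys). Of 9 enteroendocrine genes 5 were called lower. Ghrl, the hormone ghrelin, stood at 359 CPM in het and 0.231 in Cys, but 87.8% of the het UMIs came from 1 cell, as did 94.2% of those of Chga; Chga, Chgb and Cck had no Cys UMI. In the tuft list Trpm5, Rgs13, Lrmp and Alox5ap were called lower, with 36.5% of the het Trpm5 UMIs in 1 cell. Dclk1, the usual tuft marker, had 2 Cys and 42 het UMIs. Ptgs1, cyclooxygenase 1, was called higher (16.6 CPM in het and 52.7 in Cys). Its log2 ratio fell from 1.24 to 0.69 with equal weight for every cell and 0.35 with thinned cells, both under the limit. Among secretory progenitor genes 5 of 8 were called lower, led by Neurog3, the endocrine progenitor factor (107 CPM in het and 0.693 in Cys), and the Notch ligand Dll1 (42.9 CPM in het and 0.462 in Cys). Atoh1, the factor that opens the secretory fate, was low in both libraries (10.9 CPM in het and 5.08 in Cys).

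Of 15 goblet genes 8 were called lower and 5 higher. Muc2, the gel-forming mucin of the gut, was at 183 CPM in het and 6.93 in Cys, 26.4-fold lower (18.4 to 39.4), Fcgbp was 31.6-fold lower (25.6 to 39.5), and Clca1 and Klk1 had 0 and 8 Cys UMIs against 137 and 170. The higher genes included makers and folders of mucin: Agr2, a disulfide isomerase needed for mucin folding, was at 0 CPM in fetal, 102 in WT, 180.3 in het, 165 in Bud and 695 in Cys, Ern2, an endoplasmic reticulum stress sensor of mucous cells, was 9.35-fold higher (7.04 to 12.7), and Spdef, the transcription factor of mucous cell maturation, 13-fold higher (8.99 to 19.6). Agr2 was seen in 57.8% of thinned Cys and 16.7% of het cells (85.7% and 49.1% at full depth), and 1 cell held 2.39% of its Cys UMIs. Galnt12 and Creb3l1 were 2.59-fold higher (2.12 to 3.18) and 2.21-fold higher (2.0 to 2.45), but both were under the limit with equal weight for every cell.

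Few genes of the cell cycle were called. None of 16 measured G2 and M phase genes was called (median log2 ratio -0.13), and of 16 S phase genes only Rrm2, a ribonucleotide reductase subunit (68.2 CPM in het and 207 in Cys; median of the list -0.04). Mki67, the proliferation marker, was at 132 CPM in fetal, 195 in WT, 269 in het, 199 in Bud and 202 in Cys, and Top2a, topoisomerase II, at 112 CPM in fetal, 334 in WT, 235 in het, 239 in Bud and 145 in Cys, with Cys to het ratios of 0.752 (0.688 to 0.822) and 0.617 (0.558 to 0.683). Of 7 cell cycle inhibitors Cdkn1a, which encodes p21, and Cdkn2a, the Ink4a/Arf locus, were called higher. Cdkn2a was at 14.9 CPM in fetal, 0.252 in WT, 0.237 in het, 0 in Bud and 11.8 in Cys; 51 Cys UMIs and 1 het UMI lie behind it, a ratio of 49.7 (8.54 to 2003), and the call was lost with thinned cells (log2 ratio 0.82).

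Several targets of p53 were higher in Cys. Of 20 measured targets of p53, the transcription factor that answers DNA damage and other stress, 8 were called higher and Sesn1 lower (median log2 ratio 0.90). Ccng1, cyclin G1, a direct target, was at 584 CPM in fetal, 105 in WT, 75.6 in het, 122 in Bud and 570.5 in Cys, 7.55-fold higher (6.72 to 8.51) in Cys than in het. Cdkn1a was at 552 CPM in fetal, 189 in WT, 154 in het, 157 in Bud and 445 in Cys. Eda2r, a member of the TNF receptor family, was 18.3-fold higher (11.1 to 32.5), Plk2 8.74-fold higher (5.77 to 13.8) and Phlda3 7.83-fold higher (5.6 to 11.2). Zmat3 was 6.36-fold higher (5.13 to 7.95), Trp53inp1 4.9-fold higher (3.48 to 7.07) and the apoptosis effector Bax 4.04-fold higher (3.51 to 4.66). Mdm2, which encodes the ligase that degrades p53, lay just under the limit at 43.1 CPM in het and 96.1 in Cys, a ratio of 2.23 (1.87 to 2.67). Not all targets followed: Pmaip1, Gdf15, Bbc3 and Fas were at ratios of 1.05 (0.796 to 1.39), 1.09 (0.816 to 1.46), 1.25 (0.788 to 2.01) and 0.683 (0.372 to 1.23), and Sesn1, a sestrin that is a target of both p53 and FOXO factors, was 5.16-fold lower (3.45 to 7.98). Bud organoids, also Lkb1 -/-, had 122 CPM of Ccng1 and 157 of Cdkn1a, against 105 and 189 in WT. The Ccng1 promoter is printed for its p53 half-site, in capitals (250 bases before the start site, chr11:40755287-40755536, reverse strand, GRCm38.p6, RefSeq, 5' to 3'):
Ccng1: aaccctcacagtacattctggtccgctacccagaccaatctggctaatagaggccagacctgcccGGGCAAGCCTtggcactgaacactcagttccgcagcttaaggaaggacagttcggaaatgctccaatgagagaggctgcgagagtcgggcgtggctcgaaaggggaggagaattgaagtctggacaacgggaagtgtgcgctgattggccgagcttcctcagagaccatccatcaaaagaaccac
This half-site reads the same pattern on both strands and starts at -185. A half-site was found in the promoters of Bax, Ccng1 and Cdkn1a among the 6 of 8 higher targets with a promoter in the table, and in 8.36% of all promoters.

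**Figure D2:**
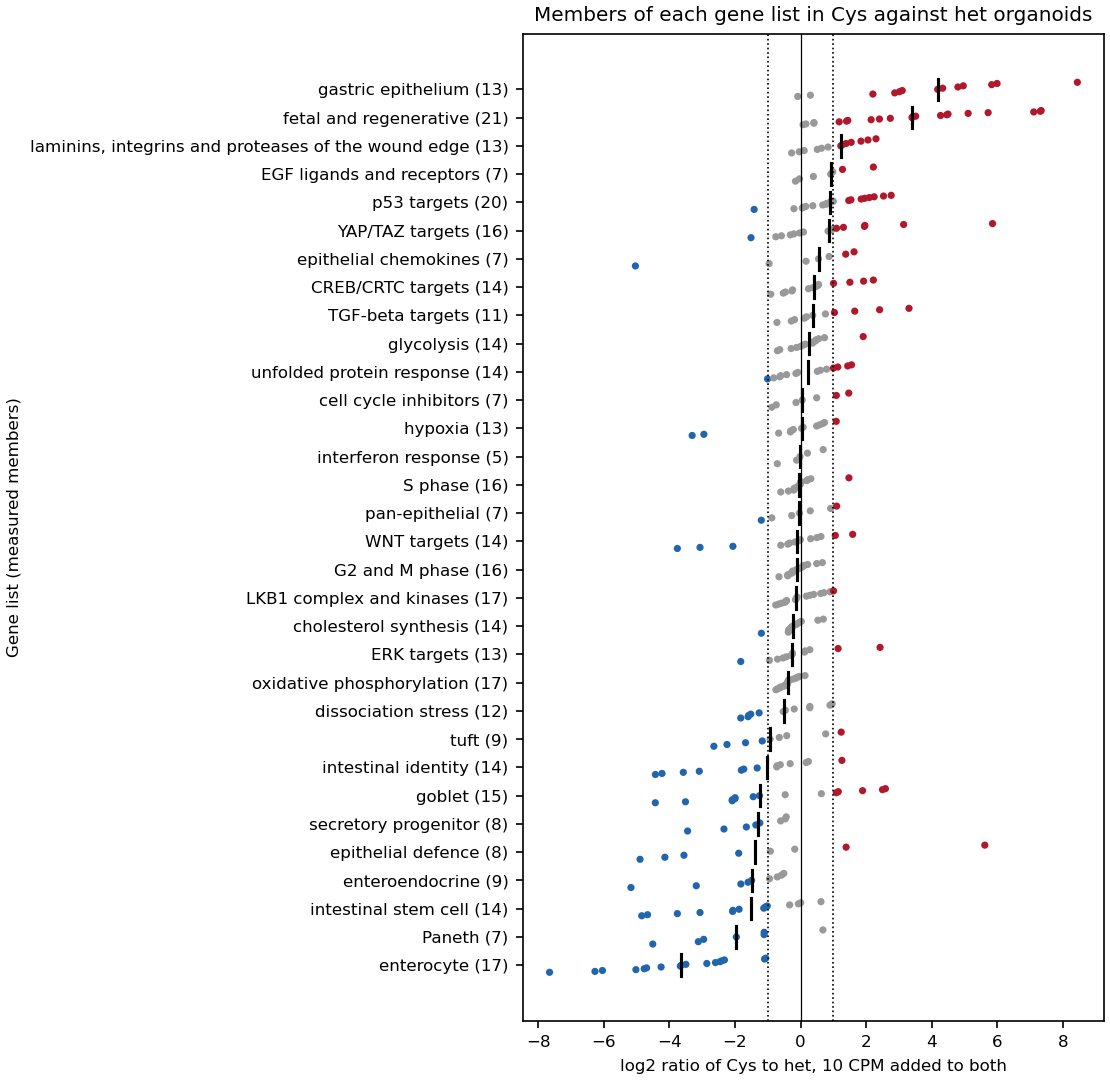
Log2 ratio of Cys to het (x axis, 10 CPM added to both) of every measured member of the gene lists with at least 5 measured members (y axis), 1 point per gene, red where called higher, blue where called lower and grey otherwise; black bars are list medians and dotted lines the limits of a call. The gastric list (median 4.18) is at the top and the enterocyte list (-3.64) at the bottom, and the G2 and M phase, oxidative phosphorylation and interferon lists have no called member.

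YAP and TAZ are the coactivators that the Hippo pathway restrains. Of 16 measured targets 6 were called higher and Gadd45a lower (median log2 ratio 0.87). Ctgf, the most used reporter of YAP activity, was at 796 CPM in fetal, 2.27 in WT, 2.84 in het, 7.28 in Bud and 732 in Cys, 258-fold higher (147 to 499), and a UMI of it was found in 83.3% of Cys and 3.78% of het cells at full depth. After thinning these shares were 58.7% and 0 of 275, and a limit of 3 cells allows up to 1.09% of het cells with a UMI at that depth. Myof was 63.9-fold higher (29.1 to 175) and Ptpn14 13.9-fold higher (7.75 to 27.4). Ankrd1 was at 0.474 CPM in het and 30.7 in Cys, but 42.9% of its Cys UMIs came from 1 cell, and fetal organoids had 1020.0 CPM. Cyr61, the second classical reporter, was not called, at 44.8 CPM in het and 22.4 in Cys, a ratio of 0.501 (0.388 to 0.643), and Amotl2 and Lats2 were just under the limit at log2 ratios of 0.97 and 0.91. Asap1 and F3 were the other 2 higher members, and Asap1 dropped to a log2 ratio of 0.53 with equal weight for every cell. In the dividing cells described below, 4 of 16 targets were called higher and Cyr61 was called lower (log2 ratio -1.47), with a list median of 0.61. Ankrd1, Asap1 and Gadd45a lost their calls there (0.76, 0.97 and -0.64).

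TGF-beta targets were called higher in 4 of 11 cases and lower in none (median log2 ratio 0.37), beside 5.95% of all measured genes called higher. Pmepa1, a feedback inhibitor of SMAD signalling, was 7.8-fold higher (6.11 to 10.1). The BMP-responsive factors Id2 and Id1 were 3.37-fold higher (3.01 to 3.79) and 2.28-fold higher (1.92 to 2.72), while Id3 had a ratio of 0.834 (0.626 to 1.11). Id1 was under the limit in dividing cells (log2 ratio 0.25). Of 13 measured laminins, integrins and proteases of migrating epithelium 7 were called higher and none lower (median log2 ratio 1.23). The laminin chain Lama5 was 5.33-fold higher (4.36 to 6.58), Plaur, the urokinase receptor, 6.0-fold higher (4.37 to 8.42), and the hemidesmosome integrin Itgb4 3.16-fold higher (2.79 to 3.6). Itga3, Itgav and Lamc1 were called higher too, and the laminin chain Lamb3 was not called, at 48.3 CPM in het and 46.7 in Cys.

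Among 17 measured genes of the LKB1 complex and its kinases Sik1 alone was called, beside 5.95% of all measured genes called higher. It was at 1.9 CPM in het and 13.9 in Cys, a ratio of 7.32 (3.48 to 17.7). Its log2 ratio of 1.00 lay on the limit, since 10 CPM weigh heavily at such levels. No AMPK subunit was called, and the catalytic subunits Prkaa1 and Prkaa2 were at ratios of 0.906 (0.709 to 1.16) and 0.87 (0.689 to 1.1). Within the dividing cells described below, a set chosen after the data had been seen, other subunits did not share a direction. Prkab1 was at a ratio of 1.78 (1.34 to 2.4) there, from 140 Cys and 73 het UMIs. Prkag2 was at 0.538 (0.318 to 0.89), from 26 and 45, and neither was called in these cells. Of 14 measured CREB/CRTC targets 4, Areg, Nr4a1, Pde4d and Sik1, were called higher and none lower (median log2 ratio 0.42). Nr4a1, an orphan nuclear receptor induced by cAMP, was at 14.5 CPM in fetal, 4.8 in WT, 6.87 in het, 42.2 in Bud and 53.8 in Cys, and Pde4d, the cAMP phosphodiesterase, at 20.3 CPM in fetal, 10.1 in WT, 20.8 in het, 18.6 in Bud and 77.4 in Cys. Both Lkb1 -/- libraries were the highest for Nr4a1, whereas Pde4d was high in Cys alone. Fos was at a ratio of 0.703 (0.616 to 0.802), and Ppargc1a, a coactivator of mitochondrial genes, was low in both libraries with 1 Cys and 39 het UMIs.

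Among EGF ligands and receptors the 2 called genes were ligands. Areg, amphiregulin, was at 65.1 CPM in fetal, 16.2 in WT, 27.2 in het, 20.3 in Bud and 163 in Cys, 6.0-fold higher (4.92 to 7.37), and Btc, betacellulin, was 3.23-fold higher (2.48 to 4.23). Tgfa and Hbegf were near the limit at log2 ratios of 0.98 and 0.91, and Tgfa passed it (1.04) when Rn45s was left out of the total. Egfr itself was at 21.1 CPM in het and 20.3 in Cys, a ratio of 0.964 (0.71 to 1.31), and Erbb2 at 1.39 (1.14 to 1.7). The ERK targets did not share a direction: Ier3 (7.26-fold, 5.87 to 9.07) and Phlda1 (2.24-fold, 2.11 to 2.39) were called higher and Egr1 lower (4.73-fold, 3.77 to 5.98), with a list median log2 ratio of -0.26. Phlda1 was under the limit with equal weight for every cell (0.90). Dusp6 and Spry2, feedback inhibitors of the cascade, were at ratios of 1.12 (0.925 to 1.37) and 0.557 (0.394 to 0.782), and Etv4 and Etv5 at log2 ratios of -0.95 and -0.70.

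Cys cells had less of the antimicrobial genes of the small intestine and more lactoferrin. Of 8 measured defence genes Lypd8, Dmbt1, Reg3g and Reg4 were called lower and Ltf and Slpi higher (median log2 ratio -1.40). Lypd8, which keeps bacteria off the epithelium, was at 1045 CPM in het and 25.4 in Cys, 41.1-fold lower (34 to 50.1), and the lectin Reg3g had 0 Cys UMIs against 455. Ltf, the iron-binding lactoferrin, was at 216 CPM in fetal, 0.252 in WT, 1.9 in het, 0.502 in Bud and 574 in Cys, and 9.26% of its Cys UMIs came from 1 cell. For Slpi that share was 67.1%. Among 7 measured epithelial chemokines 2 were called higher and 1 lower (median log2 ratio 0.55). The small intestinal chemokine Ccl25, which draws gut-homing T cells, was at 562 CPM in het and 7.39 in Cys, 76-fold lower (53.7 to 111), while Cxcl16 and Cxcl5 were 6.63-fold higher (4.34 to 10.5) and 25-fold higher (8.25 to 124).

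Tek, which encodes the angiopoietin receptor TIE2 of endothelial cells, was at 0 CPM in fetal, 0 in WT, 1.42 in het, 2.01 in Bud and 341 in Cys. A UMI of it was found in 45% of thinned Cys cells and 83.9% at full depth, and 1 cell held at most 2.78% of the Cys UMIs. Of the other endothelial markers, Pecam1, Cdh5, Kdr and Emcn had 0 UMIs in Cys and Vwf had 1. Car2, carbonic anhydrase II, was at 329 CPM in fetal, 20.7 in WT, 3.79 in het, 3.77 in Bud and 1162 in Cys, and Krt4, a keratin of stratified epithelium, at 0.948 CPM in het and 330.2 in Cys. At the lower end of all genes stood the carboxylesterases Ces2a (508 CPM in het and 0.231 in Cys) and Ces2e (71.5-fold, 54.8 to 95.1), the aldehyde dehydrogenase Aldh1b1 (169-fold, 102 to 302), the annexin Anxa13 (92.3-fold, 64.1 to 138), the chloride channel regulator Clca4 (51.1-fold, 42.2 to 62.3), Tm4sf5 (99.5-fold, 64.9 to 161), the glycosyltransferase B4galnt2 (215-fold, 104 to 535) and the transmembrane mucin Muc13 (75.8-fold, 51.9 to 115). Muc13, B4galnt2, Aldh1b1 and Clca4 were not limited to few het cells: after thinning, 57.1%, 47.3%, 61.8% and 67.6% of het cells held a UMI, against 0.917%, 0.306%, 0.917% and 6.42% of Cys cells. At full depth the shares were 93.8%, 84.2%, 88.7% and 87.3% of het and 4.48%, 2.09%, 4.18% and 24.2% of Cys cells.

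**Figure D3:**
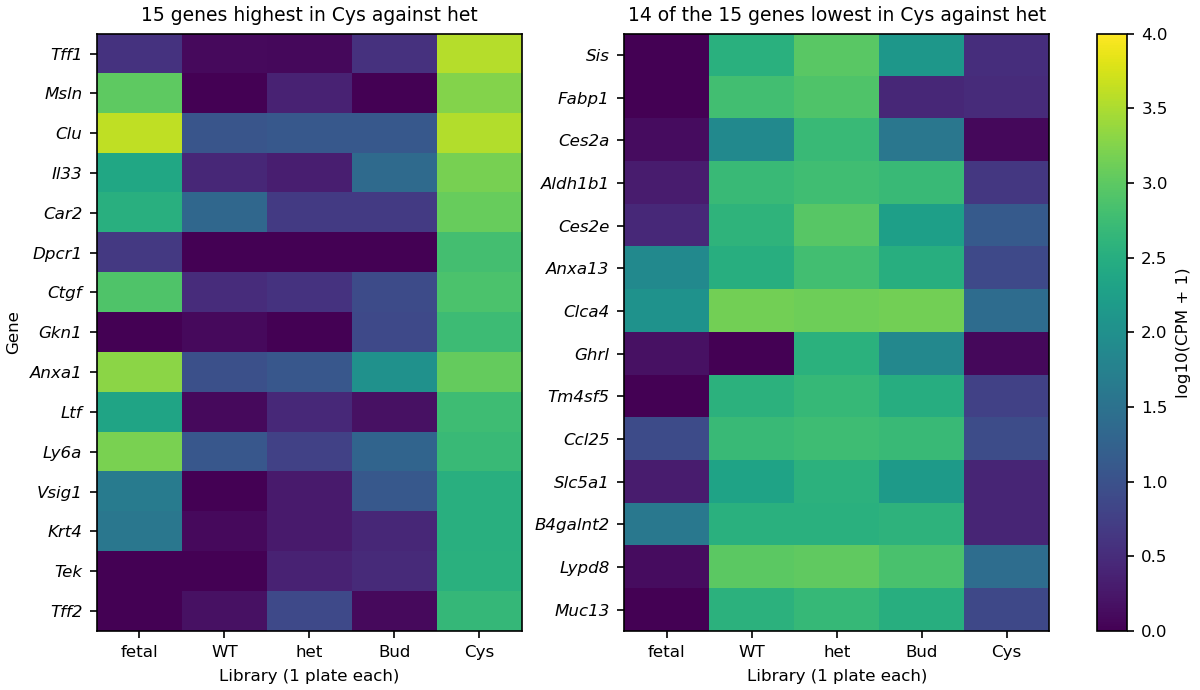
Levels as log10(CPM + 1) (colour) in the 5 libraries (x axis) of the 15 genes with the largest and 14 of the 15 with the smallest log2 ratio of Cys to het (y axis) among genes seen in at least 10% of the cells of the higher plate. On the left, Cys is bright throughout, fetal is bright for Clu, Msln, Anxa1, Ly6a and Ctgf but not for Tff1, Gkn1, Tek and Tff2; on the right, WT, het and Bud are bright for most genes, Cys is dark, and fetal is dark apart from Anxa13, Clca4 and B4galnt2.

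The fetal levels of the higher genes varied, as shown by a few genes chosen after their values had been seen. Clu, Anxa1, Ly6a and Ctgf stood at 4157, 1992, 1553 and 796 CPM in fetal organoids, near or above their Cys levels of 3419, 1116, 507 and 732. Tff1, Tff2, Gkn1 and Tek, at 2.9, 0, 0 and 0 CPM, were at or near zero there. Msln, Il33, Car2 and Ltf lay between, at 1032, 239.8, 329 and 216 CPM in fetal against 1836, 1534, 1162 and 574 in Cys. Among the lower genes Anxa13, Clca4 and B4galnt2 kept 77.7, 109 and 38.6 CPM in fetal organoids, above the 6.7, 25.2 and 1.62 CPM of Cys, and Sis and Fabp1 were at 0 in fetal. These are levels of single libraries set side by side and no test stands behind an order.

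Few metabolic genes were called. None of 17 measured oxidative phosphorylation genes was called, with a median log2 ratio of -0.40, and of 14 glycolysis genes only Hk1, a hexokinase, was (17.5 CPM in het and 93.3 in Cys; median 0.25). In cholesterol synthesis 1 of 14 genes, Dhcr7, was called, and it was lower (2.48-fold, 2.16 to 2.84; median -0.24). Of 13 measured hypoxia genes 10 were not called (median log2 ratio 0.03), among them Vegfa at a ratio of 0.605 (0.534 to 0.685). Car9, carbonic anhydrase IX (12-fold, 10.3 to 14), and Ndrg1 (9.52-fold, 8.09 to 11.3) were lower and Hilpda higher (2.71-fold, 2.09 to 3.54), and Hilpda was at a log2 ratio of 0.43 in dividing cells. Of 14 measured genes of the unfolded protein response 4 were called higher, 1 lower and 9 neither (median log2 ratio 0.21). The higher genes were endoplasmic reticulum chaperones and isomerases (Sdf2l1 4.29-fold, 3.23 to 5.78, Calr 2.75-fold, 2.6 to 2.91, Pdia6 2.24-fold, 2.09 to 2.4, Pdia4 2.39-fold, 1.9 to 3.01) and the lower gene was Trib3 (2.98-fold, 2.11 to 4.29), with Pdia4 and Trib3 on the limit and under it in other settings. The main chaperones Hspa5 and Hsp90b1 were not called, at ratios of 1.53 (1.45 to 1.62) and 1.43 (1.35 to 1.52). Of 12 genes that respond to cell dissociation 5 were called lower and none higher: Egr1, Jun, Fosb, Zfp36 and Ier2, with Jun at 84.8 CPM in het and 21.3 in Cys and Fosb at 22.7 CPM in het and 0.924 in Cys; Zfp36 was at a log2 ratio of -0.64 with thinned cells. None of 5 measured interferon genes was called (median log2 ratio -0.02), nor was the 1 measured MHC class II gene.

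Transcripts of both the fetal and the gastric list were found in nearly every Cys cell, and the gastric sums varied widely from cell to cell. In cells thinned to 2000 UMIs (327 Cys and 275 het; 8 and 16 shallower cells were left out), the fetal and regenerative list summed to between 5 and 64 UMIs in Cys cells, median 28, and to between 0 and 28 in het cells, median 1. The plates overlapped in part: 174 of the 327 Cys cells lay within the het range, and 30 of the 275 het cells within the Cys range. At least 10 UMIs of the list were found in 98.8% of Cys cells (96.9 to 99.7) and 1.82% of het cells (0.593 to 4.19). Gastric genes summed to between 0 and 139 UMIs in Cys, with quartiles of 6 and 18 and a median of 10, and to at most 4 in het, where 245 of 275 cells had none; 51 Cys cells lay within the het range and 1 had none. A gastric sum of 10 or more was reached by 55.0% of Cys cells (49.5 to 60.5) and by 0 of 275 het cells, where the limit of 3 cells allows up to 1.09%. The lists differ in abundance, with Cys medians of 28 and 10 UMIs, so their shares at 10 UMIs do not compare how widely they were expressed. Enterocyte genes were absent from 299 of 327 Cys cells and reached 4 UMIs at most, while het cells ranged from 0 to 176 UMIs with 26 at 0.

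A sum of 10 or more enterocyte UMIs was reached by 50 het cells (18.2%, 13.8 to 23.3) and by 0 of 327 Cys cells, where the limit of 3 cells allows up to 0.917%. Goblet genes reached 10 UMIs in 19 Cys cells (5.81%, 3.53 to 8.93) and 29 het cells (10.5%, 7.18 to 14.8). They reached 20 UMIs in 8 Cys cells (2.45%, 1.06 to 4.76) and 25 het cells (9.09%, 5.97 to 13.1). The intervals overlap at 10 UMIs and do not at 20, and they cover counting of cells only. Paneth genes reached 10 UMIs in 1 Cys and 9 het cells, enteroendocrine genes in 0 and 6, and tuft genes in 0 and 5. No UMI of the tuft list was found in 86.2% of Cys and 96.4% of het cells. p53 targets shifted across the plate, with a median of 4 UMIs in Cys and 1 in het and 7 and 62 cells at 0, and stem cell genes from a median of 5 in het to 1 in Cys. YAP/TAZ targets had medians of 2 and 0 in Cys and het, and G2 and M phase genes 1 and 1.

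**Figure D4:**
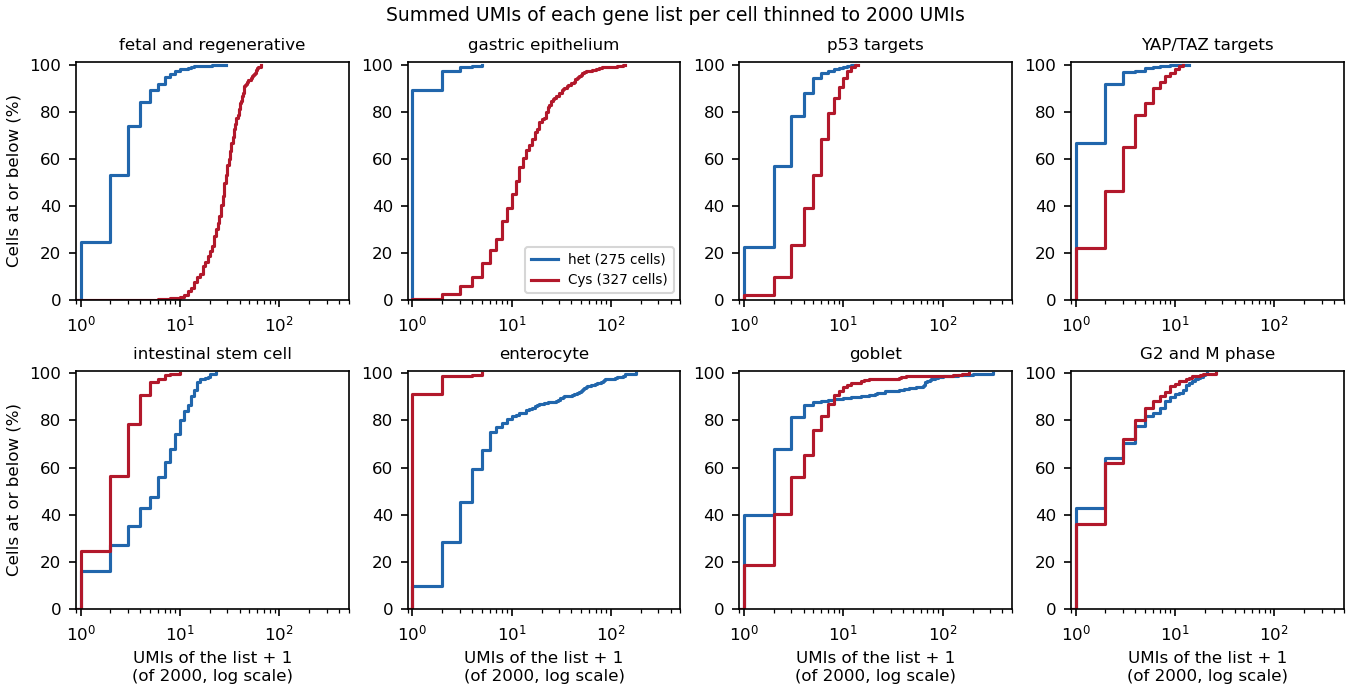
Share of cells (y axis, percent) at or below a given sum of UMIs of a gene list (x axis, UMIs + 1 of 2000 per cell, log scale) for 8 lists, with het in blue (275 cells) and Cys in red (327 cells). The curves lie far apart for fetal and gastric genes, with medians of 28 against 1 and 10 against 0 UMIs, are reversed for stem cell and enterocyte genes, and nearly coincide for G2 and M phase genes.

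To set like cells side by side, cells with at least 3 UMIs of the G2 and M phase list after thinning were compared on their own, a choice made after the data had been seen. They made up 27.8% of Cys cells (91 cells, 23.0 to 33.0) and 29.5% of het cells (81 cells, 24.1 to 35.2), intervals that overlap and cover counting of cells only. With 1454186 and 1352963 UMIs, 10329 genes were measured, of which 778 (7.53%) were called higher and 687 (6.65%) lower. Of the genes called over all cells, 1345 could be measured here and 1344 kept their direction, but the dividing cells are themselves part of that comparison. Of the genes measured in dividing cells, 11 of 11 gastric and 17 of 20 fetal genes were called higher. Their median log2 ratios were 4.47 and 3.56. A gene high in Cys can reach 10 UMIs over both plates through Cys alone. Tff1, Dpcr1, Gkn1, Vsig1, Ctse, Anxa10, Gkn2, Aqp5 and Psca had 0 UMIs in dividing het cells. Cldn18 (6 Cys and 0 het UMIs) and Capn8 (3 and 3), uncalled over all cells, fell under 10 UMIs. The gastric count was thus shaped by the filter and is no separate support. Single gastric genes differed less or more than over all cells, with Tff1 at 8.32 against 8.44, Gkn3 at 2.30 against 3.10 and Anxa10 at 4.63 against 4.18. Tff1 had 4636 UMIs in dividing Cys cells and 0 in dividing het cells, and Clu 4273 and 13. Of 14 stem cell genes 9 were called lower (median -1.76), and intestinal identity was as over all cells, with 7 lower and 1 higher of 14 (median -1.03). Enterocyte genes differed less than over all cells, with 11 of 14 lower and a median of -1.88 against -3.64. Among p53 targets 10 of 20 were called higher and 1 lower (median 0.97), and the log2 ratio of Cdkn1a was 2.74 here against 1.47 over all cells. Tff3, at -3.43 against -1.44, also differed more. In the tuft list just 2 genes could be measured in dividing cells, Ptgs1 (71 Cys and 1 het UMI) and Avil (69 and 0). Both passed through their Cys UMIs and were called higher. Tuft genes called lower over all cells, such as Rgs13 (0 Cys and 1 het UMI) and Trpm5 (1 and 1), could not enter. The changed sign of the list median (2.49 against -0.93) thus follows from the filter and is no result about the list.

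**Figure D5:**
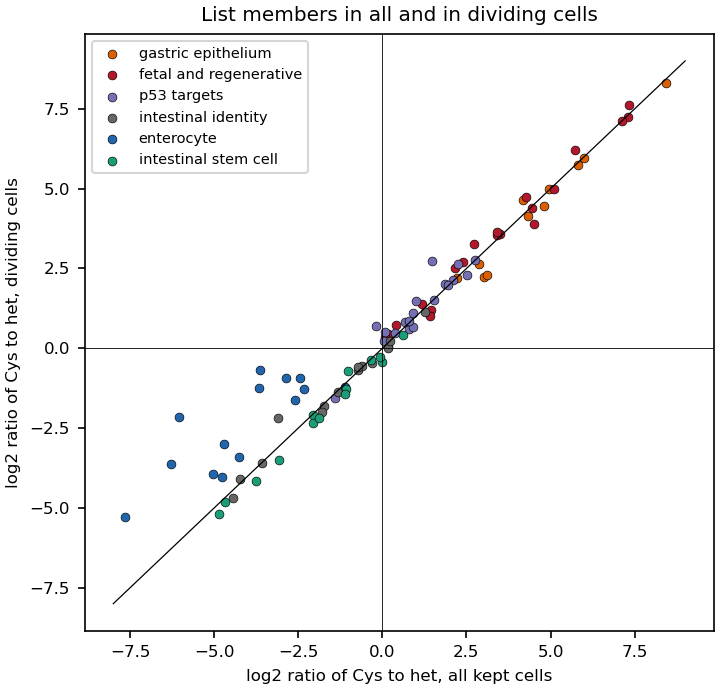
Log2 ratio of Cys to het over all kept cells (x axis) and over dividing cells alone (y axis), 1 point per measured member of 6 gene lists; the diagonal marks equal values. Gastric and fetal genes lie near the diagonal, and most enterocyte genes above it, where the difference was smaller in dividing cells.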

How the data were processed

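Per the labels, each SORT-seq library was a 384-well plate of organoid cells, dissociated with TrypLE and placed by a cell sorter. Per the submitters' processing notes, STAR 2.6.1, featureCounts 1.5.2 and Seurat 4.1.0 were used with mouse build GRCm38. How strand and multi-mapping reads were handled is not stated there, so overlapping genes and close paralogs are uncertain. The authors deposited for each plate a table of UMI counts per gene and well and a table of estimated counts of transcripts, in which UMI collisions are corrected. The latter followed from the former by the usual formula for 4096 UMI codes within 3.6e-12. Read counts deposited beside them gave 3.01 reads per UMI in Cys and 3.23 in het.

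From the UMI counts, spike-ins were dropped, wells were filtered as stated, and counts were summed per plate and scaled to CPM with Python 3.11.15, numpy 2.4.6, pandas 2.3.3, scipy 1.17.1 and matplotlib 3.10.9. Kept wells held 1148 to 47777 UMIs in Cys and 1009 to 41679 in het; 25 Cys and 33 het wells had under 1000. Fewer than 10 UMIs were found for 6727 of 18418 genes present on either plate. Intervals are exact Poisson for levels, exact conditional binomial for ratios and Clopper-Pearson for shares, all at 95%; they and the floor of 3 UMIs (0.693 CPM in Cys, 0.711 in het) cover counting error only. No doublet caller was run, because wells were sorted 1 cell each and wells over 100000 UMIs were removed. The comparison code was tested on simulated data. Members and the 36 gene lists were chosen with earlier results of these data known. Named were the 15 genes with the largest and the 15 with the smallest log2 ratio among those in at least 10% of the cells of the higher plate, up to 4 genes per list with the largest ratios at 20 CPM or more, and fixed markers; other list members, and the printed promoters, were chosen after their values were seen. RefSeq start sites (GRCm38.p6) gave the promoters. A few named genes are not reported here.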

Additional observations from a re-analysis of the deposited data

How the results depend on the processing

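No paired analysis was possible because each group is 1 library; for the same reason no library could be left out. Against 696 genes higher and 712 lower, adding 1 CPM in place of 10 gave 1360 and 1524, and a limit of 1.5-fold gave 1468 and 1578. The other settings gave 673 (deposited transcript table) to 778 genes higher (dividing cells alone, a choice added after the data had been seen) and 687 (dividing cells) to 838 lower (thinned cells). Of the 1408 called genes, all that could be measured kept their direction in every planned setting, and 1344 of 1345 did in dividing cells. The added CPM, the fold limit and the minimum of UMIs cannot change a direction. The other settings reuse the UMIs of the same 2 plates, so kept directions are no independent support. With equal weight for every cell 1287 of 1408 were still called, and 1158 of 1308 with thinned cells. Scaling by the median ratio over genes with at least 50 CPM moved the median log2 ratio of all genes from -0.05 to -0.03. In each setting run, 17 fetal genes and 11 or 12 gastric genes were called higher, and 9 or 10 stem cell genes and 7 genes of intestinal identity (10 at the 1.5-fold limit) lower. Of the named genes, 9 lost their call with equal weight, 11 with thinned cells, 37 in dividing cells, and at most 2 in any other setting. Treh was at -0.93 with thinned cells, Defa24 at -0.92 with wells over 3000 UMIs, and Tnfrsf19 at -0.91 with all wells over 1000 UMIs. Genes near 10 UMIs stand close to the floor, so their ratios are bounded by depth.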
